A study of Mus musculus with 31 samples.

Results

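The comparison described here asks whether a liver that has been through earlier fasts answers a new fast differently from a liver that has not. It is the difference between a pair of responses: fasted minus fed mice after 2 earlier fasts, less fasted minus fed mice after 0 earlier fasts. All 31 of the 31 arrays of the series enter it, each holding liver RNA of 1 male C57BL/6 mouse aged 3 to 4 months, and it was computed for 22180 genes. The group Fed-Fed-Fed (8 mice) was fed ad libitum throughout and sampled fed, and Fed-Fed-Fast (8 mice) had no earlier fast and was sampled after a 16 h fast. Fast-Fast-Fed (8 mice) had 2 earlier fasts of 16 h within 8 weeks, with recovery of growth in between, and was sampled fed. Fast-Fast-Fast (7 mice) had the same 2 earlier fasts and a final 16 h fast. No group carries a transgene or drug, and livers were taken in the morning. The interval between the last earlier fast and sampling, and the hours since the fed mice last ate, do not appear in the labels.

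Values are RMA signals on a log2 scale, so 1 unit is a 2-fold change. They ran from -0.0139 to 13.1, and array medians lay between 2.01 and 2.07. Pearson's r between arrays was 0.965 to 0.982 over all probe sets. Hepatocyte markers were high in every group, with a mean of 9 measured markers between 11.70 and 11.80 on every array. A gene was called where limma's Benjamini-Hochberg adjusted p over all 22180 genes was under 0.05. Replicates are separate mice, so the tests measure the spread between animals, and the number of arrays limits the precision.

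During a fast, the liver changes from storing fuel to releasing it. Fatty acids from adipose tissue activate the nuclear receptor PPAR-alpha, which raises genes of fatty acid uptake, oxidation and ketone body production. Glucagon and glucocorticoids raise gluconeogenic genes, and the loss of insulin lowers SREBP-driven synthesis of fatty acids and sterols. A lasting trace of earlier fasts, for example in chromatin, could appear as a response of another size in mice that had fasted before.

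No gene was called as responding differently: 0 of 22180 (0%) passed the test of the difference between the responses, with a smallest adjusted p of 0.135 by limma. At an unadjusted p under 0.05 there were 1023 genes (4.61%), 510 with a positive and 513 with a negative difference. A fit without moderated variances also called 0 genes, with 1028 at an unadjusted p under 0.05. By contrast, the final fast itself changed 2768 genes (12.5%) in mice with 0 earlier fasts and 2569 genes (11.6%) in mice with 2 earlier fasts. History alone separated no gene by the same test, in fed mice (0 called, 0%, 1245 at an unadjusted p under 0.05) or in fasted mice (0 called, 0%, 996 at an unadjusted p under 0.05). Leaving out 1 mouse gave 1 call at most: Rnd3 in fed mice without Fast-Fast-Fed replicate 1, Zc2hc1c in fed mice without Fed-Fed-Fed replicate 4, and 1700025C18Rik in fasted mice without Fast-Fast-Fast replicate 6.

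The absence of a call was read through the 95% intervals of the difference, gene by gene. For 18811 genes (84.8%) the interval lay within 1.5-fold either way, and for 21841 genes (98.5%) it lay within 2-fold. These shares include dim genes, where a level is hard to tell from background and a narrow interval says less about the response. They were 80.3% and 97.4% among the 11090 genes of higher mean signal, and 89.4% and 99.5% among the 11090 of lower mean signal. In 339 genes the interval reached beyond 2-fold, so for them these data leave room for a difference of that size. The precision was lower where the fast acts most. A set of 299 fast-responsive genes was taken by the mean of both responses (adjusted p under 0.05 by limma, which 4247 genes or 19.1% passed, and a mean change beyond 2-fold). Of these, 125 (41.8%) had intervals within 1.5-fold and 237 (79.3%) within 2-fold.

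The responses with and without earlier fasts come from different mice and can be set side by side. Over the 299 fast-responsive genes Pearson's r between them was 0.989 and Spearman's rank correlation 0.950, across genes, which are not independent replicates and were chosen for a large mean response. The sign of the response was the same in both histories for all 299, which the choice by a large mean response nearly fixes. Not all were called in both: Foxq1 was at -0.53 without and Gadd45g at 0.76 with earlier fasts, neither called. With 2 earlier fasts the change was larger in 111 genes and smaller in 188, and the median size was 1.33 against 1.43 log2 units. The size of that imbalance varied with single mice. Without Fed-Fed-Fast replicate 5 the count was 140 larger and 159 smaller, and without Fast-Fast-Fast replicate 1 it was 137 larger and 162 smaller. Without Fast-Fast-Fast replicate 4 it was 98 larger and 201 smaller. Whichever mouse was left out, more genes were smaller than larger, but these counts share nearly all mice and are not independent of each other. Over all 22180 genes the count leaned the other way, with 11272 larger and 10908 smaller. The median size there was 0.097 with and 0.092 without earlier fasts, r was 0.853 and the rank correlation 0.547.

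**Figure D1:**
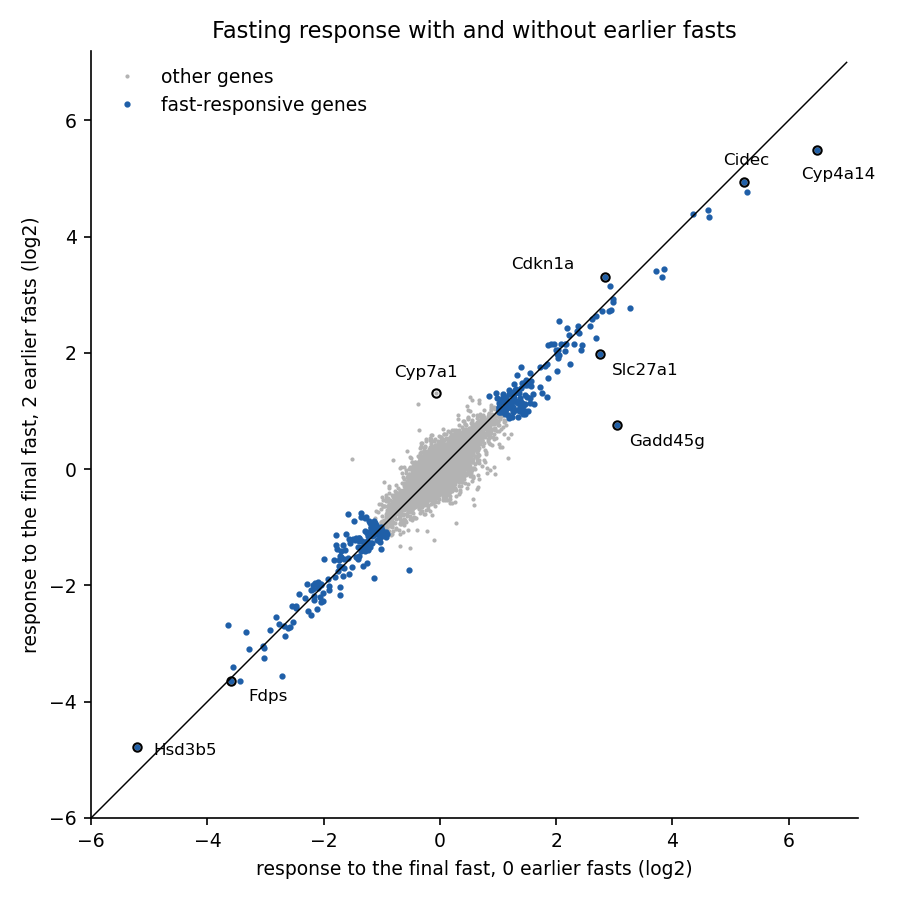
Response to the final fast (log2, fasted minus fed) in mice with 2 earlier fasts (vertical axis) against mice with 0 earlier fasts (horizontal axis), 1 point per gene, with the 299 fast-responsive genes in blue, 8 named genes circled and the line of equal response. Most blue points lie near the line, and Gadd45g (3.04 against 0.76) lies far below it.

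PPAR-alpha targets responded strongly in both histories. In counts of list members, rose or fell means called in that direction. Over all 22180 genes, 1387 rose and 1381 fell with 0 earlier fasts, and 1344 rose and 1225 fell with 2. Of 27 measured targets, 24 rose and 1 fell with 0 earlier fasts, and 24 rose with 2 earlier fasts. Their median responses were 1.73 and 1.76. The median difference was -0.01, beside 0.005 over all genes, and 0 of 27 were called. Ehhadh, the peroxisomal bifunctional enzyme of beta-oxidation, ran from 8.34 to 8.89 (median 8.52) in Fed-Fed-Fed and from 11.16 to 11.56 (median 11.36) in Fed-Fed-Fast. After 2 earlier fasts it ran from 8.26 to 9.02 (median 8.61) in fed and from 11.04 to 11.60 (median 11.36) in fasted mice. Fed and fasted mice did not overlap in either history, and the responses of 2.80 and 2.72 differed by -0.08 (95% interval -0.37 to 0.22).

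Cpt1a, which admits long-chain fatty acids into mitochondria, had the narrowest interval of the 20 panel genes. Its medians were 9.22 fed and 10.59 fasted with 0 earlier fasts, and 9.19 fed and 10.46 fasted with 2. The responses of 1.36 and 1.30 differed by -0.05, with an interval of -0.25 to 0.15. Acot1, a cytosolic acyl-CoA thioesterase, responded by 4.62 and 4.47, and its mitochondrial relative Acot2 by 4.35 and 4.39. The near-identical sequences of these relatives may share probes, so their levels are not fully separate. Cidec, a lipid droplet protein, went from medians of 2.86 to 7.87 without and 3.17 to 8.08 with earlier fasts, a difference of -0.30 (interval -1.05 to 0.46). That difference was -0.08 without Fed-Fed-Fast replicate 5 and -0.44 without Fast-Fast-Fed replicate 6.

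Cyp4a14, a fatty acid omega-hydroxylase, had the largest response of all named genes and a wide interval. In Fed-Fed-Fed it ran from 1.93 to 7.62 with a median of 5.76, and in Fast-Fast-Fed from 5.30 to 8.82 with a median of 6.53. Fasted mice were uniform, from 11.98 to 12.33 without and from 12.08 to 12.22 with earlier fasts. The fed groups overlapped widely, while fed and fasted mice were fully apart. The responses of 6.50 and 5.50 differed by -1.003, with an interval of -2.52 to 0.51 (adjusted p = 0.999, limma). This difference was -0.47 without Fed-Fed-Fed replicate 6, the mouse at 1.93, and -1.33 without the 4 arrays of lowest limma weight.

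The wider fatty acid oxidation list also had small differences. Of 28 measured genes, 25 rose with 0 and 24 with 2 earlier fasts, and none fell. For 26 of 28 the interval of the difference lay within 1.5-fold and for 28 of 28 within 2-fold. Its lowest difference was Decr2, the peroxisomal dienoyl-CoA reductase, at -0.23 (unadjusted p = 0.019, adjusted p = 0.999 by limma), with responses of 0.78 and 0.55. Of 17 lipid droplet and lipolysis genes, 11 rose and 1 fell without and 10 rose and 1 fell with earlier fasts.

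In gluconeogenesis, 13 of 19 genes rose without and 10 rose and 1 fell with earlier fasts, with a median difference of -0.07. Pck1, the enzyme that commits oxaloacetate to glucose, had medians of 10.70 fed and 11.98 fasted without, and 10.77 fed and 11.80 fasted with earlier fasts. Fed and fasted mice did not overlap in either history, and the responses of 1.26 and 1.07 differed by -0.19 (interval -0.58 to 0.21). G6pc, the catalytic subunit of glucose-6-phosphatase, responded by 0.30 without earlier fasts, which was not called, and by 0.46 with them, which was. The difference of 0.16 had an interval of -0.26 to 0.59, so a call in 1 history alone did not separate the histories. Ppargc1a, a coactivator of this program, had a response of 0.89 that was called and one of 0.41 that was not, with a difference of -0.49 (interval -1.13 to 0.16).

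Among genes lowered by the final fast, sterol genes had a small median difference of -0.05. Of 19 cholesterol biosynthesis genes, 18 fell in each history, with median responses of -2.11 and -1.999. For 13 of 19 the interval lay within 1.5-fold and for all 19 within 2-fold, beside 84.8% and 98.5% of all genes. Fdps, which makes farnesyl pyrophosphate, had medians of 8.95 fed and 5.21 fasted without, and 8.90 fed and 5.18 fasted with earlier fasts. Its responses of -3.59 and -3.64 differed by -0.05 (interval -0.47 to 0.37). Sqle, squalene epoxidase, responded by -3.45 and -3.64.

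In the list of glycolysis and lipogenesis, 19 of 25 genes fell and 2 rose without and 18 fell and 1 rose with earlier fasts. Fasn, fatty acid synthase, fell by 3.03 and by 3.25 on the log2 scale, with a difference of -0.22 (interval -0.85 to 0.41). Srebf1, the transcription factor that drives this program, responded by -2.93 and -2.77, and Thrsp, a lipogenic nuclear protein, by -3.55 and -3.41. Scd1, the stearoyl-CoA desaturase, had the largest difference of the list at 0.42 (interval 0.12 to 0.72, unadjusted p = 0.0081, adjusted p = 0.999 by limma). Its medians were 11.91 fed and 11.10 fasted without, and 11.76 fed and 11.60 fasted with earlier fasts, with overlap of fed and fasted mice in both.

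Other strong responders had wide intervals. Hsd3b5, a male-biased hydroxysteroid dehydrogenase, went from medians of 8.57 to 3.54 without and from 8.31 to 3.12 with earlier fasts. By medians the fall was slightly larger with earlier fasts. By group means it was smaller: the responses of -5.22 and -4.78 differed by 0.44 (interval -0.57 to 1.45). That difference was 0.137 without Fast-Fast-Fast replicate 1, 0.166 without Fed-Fed-Fast replicate 5 and 0.064 without the 4 arrays of lowest limma weight. Fgf21, the fasting hormone of the liver, responded by 2.04 and 2.56, a difference of 0.51 (interval -0.40 to 1.43) that was 0.29 without Fed-Fed-Fast replicate 8 and 0.70 at most with 1 mouse left out. Cdkn1a, a cell cycle inhibitor, responded by 2.84 and 3.31, and the difference of 0.47 had an interval of -0.52 to 1.47 and was 0.79 without Fed-Fed-Fast replicate 5, 0.29 without Fed-Fed-Fast replicate 2 and 0.299 without Fed-Fed-Fed replicate 1. Mt2, a zinc-binding metallothionein, responded by 4.63 and 4.34, and Igfbp1, the insulin-lowered binding protein of insulin-like growth factors, by 2.97 and 2.93.

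**Figure D2:**
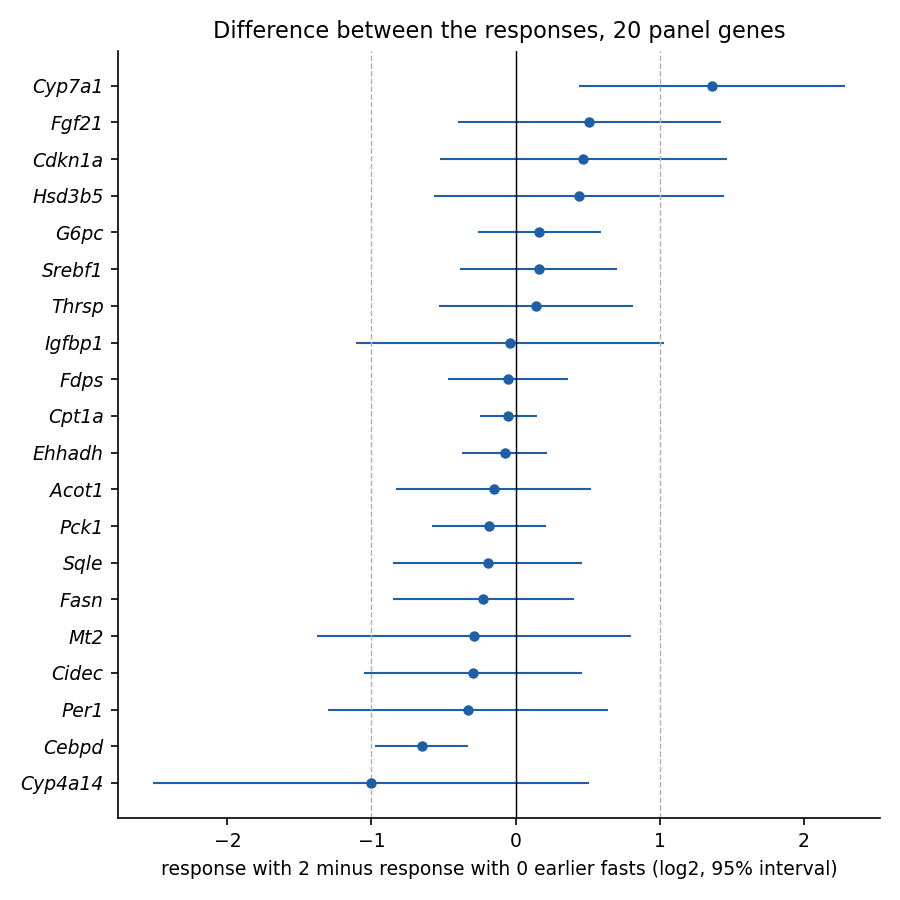
Difference between the responses (log2, 2 minus 0 earlier fasts) with 95% moderated intervals for 20 panel genes; dashed lines mark 2-fold either way. Cpt1a (-0.25 to 0.15) has the narrowest interval and Cyp4a14 (-2.52 to 0.51) the widest, and the intervals of Cebpd and Cyp7a1 leave out 0 before adjustment.

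Among the 299 fast-responsive genes, 12 (4.01%) had an interval that left out 0, beside 4.61% of all genes, and 0 were called. In 10 of the 12 the response was smaller with 2 earlier fasts and in 2 it was larger. Slc27a1, a fatty acid transport protein, had the smallest p. It ran from 2.55 to 3.42 (median 2.67) in Fed-Fed-Fed and from 4.79 to 5.75 (median 5.67) in Fed-Fed-Fast. In Fast-Fast-Fed it ran from 2.71 to 3.74 (median 3.23) and in Fast-Fast-Fast from 4.75 to 5.89 (median 5.16). Fed and fasted mice were apart in both histories, while each state overlapped between histories. The responses of 2.75 and 1.97 differed by -0.78 (unadjusted p = 0.00132, adjusted p = 0.948 by limma).

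The smallest p-values of the whole comparison belonged to Ccnjl and Arhgap31, both at an adjusted p of 0.135 by limma. They were the 2 genes of 1831 called in both histories whose responses had opposite signs. This is no separate observation, because called responses of opposite sign give a large difference by construction. Arhgap31, a GTPase-activating protein, ran from 4.07 to 4.73 (median 4.54) in Fed-Fed-Fed and from 4.48 to 5.14 (median 4.83) in Fed-Fed-Fast. It ran from 4.57 to 5.05 (median 4.90) in Fast-Fast-Fed and from 4.10 to 4.82 (median 4.49) in Fast-Fast-Fast. Fed and fasted mice overlapped in both histories. The responses of 0.34 and -0.43 gave a difference of -0.77 (interval -1.08 to -0.46).

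Ccnjl, a cyclin J-like gene, had medians of 1.68 fed and 1.48 fasted without, and 1.43 fed and 1.84 fasted with earlier fasts, a difference of 0.74 (interval 0.44 to 1.03). Its mean of 1.63 lies below the array medians, where a level is hard to tell from background. The numbered gene 1700025C18Rik, named after its values were seen, had a difference of 0.75, an adjusted p of 0.135 and a mean of 1.81. Leaving out Fast-Fast-Fast replicate 6 brought it to an adjusted p of 0.0243 (limma), the 1 call under that setting. Angel1, at -0.65 (adjusted p = 0.340, limma), became the 1 call without Fed-Fed-Fast replicate 3, with -0.73 and an adjusted p of 0.0337. Its Fed-Fed-Fed mean of 2.32 also lies near the array medians.

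Cebpd, a transcription factor of the acute phase and glucocorticoid response, rose in both histories. It ran from 1.89 to 2.41 (median 2.09) in Fed-Fed-Fed and from 2.86 to 3.66 (median 3.09) in Fed-Fed-Fast, with no overlap. In Fast-Fast-Fed it ran from 1.90 to 2.60 (median 2.26) and in Fast-Fast-Fast from 2.36 to 2.77 (median 2.64), which overlapped. The fed values lie near the array medians, where a level is hard to tell from background. The responses of 1.03 and 0.38 differed by -0.65 (interval -0.97 to -0.33, adjusted p = 0.630 by limma). Eepd1, an endonuclease and phosphatase domain protein, fell by 0.40 without and by 1.05 with earlier fasts, a difference of -0.65 (adjusted p = 0.616, limma).

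**Figure D3:**
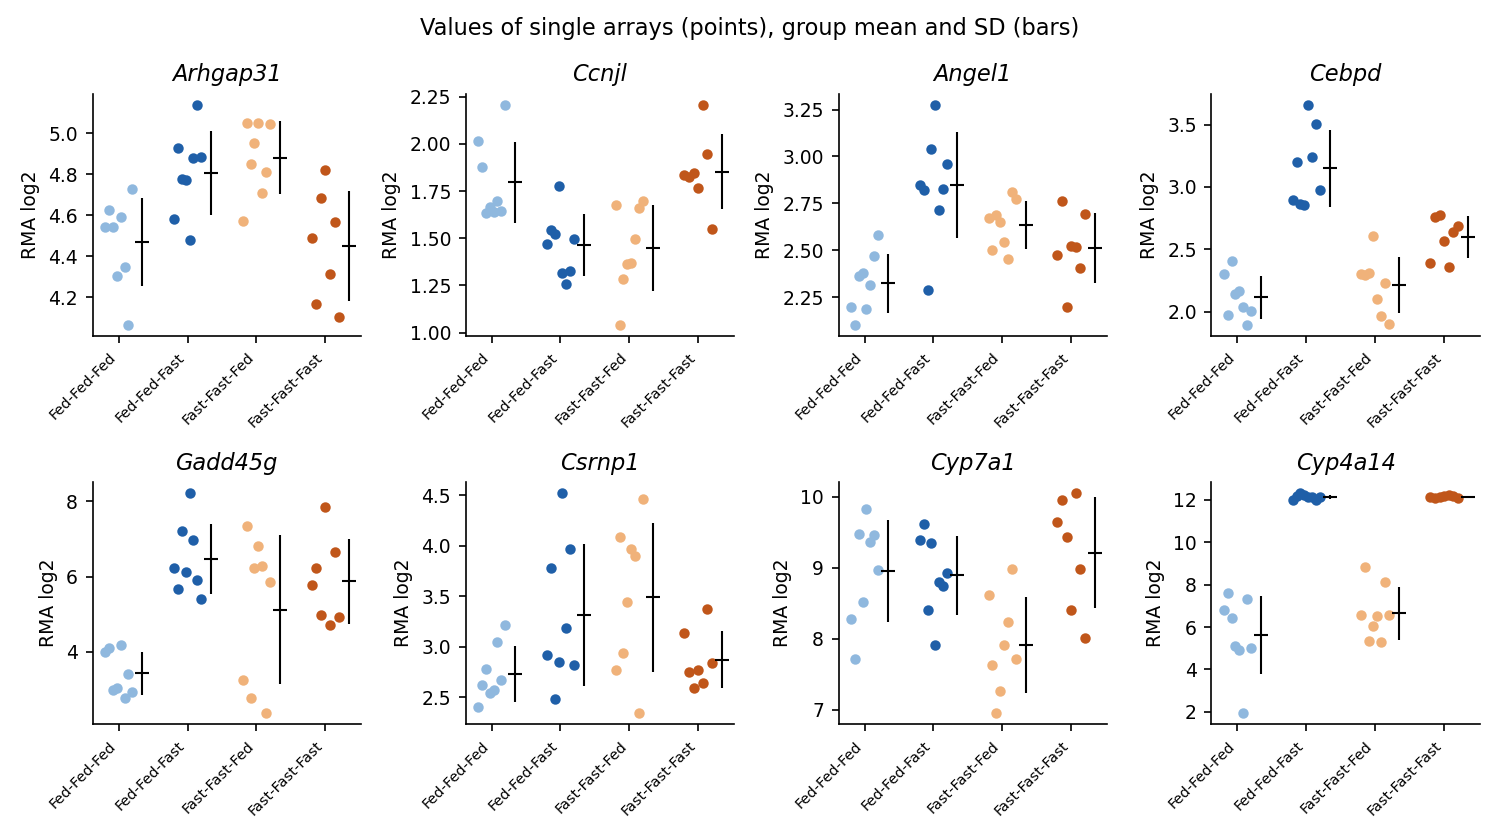
RMA log2 values of 8 genes in single mice (points) by group, with the group mean and SD beside them. Fast-Fast-Fed mice are split into high and low values for Gadd45g, and fed mice spread more than fasted mice for Cyp4a14.

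Of the 6 most negative differences in size, 5 belonged to genes with their largest SD in Fast-Fast-Fed. Gadd45g, a stress-inducible growth arrest gene, ran from 2.76 to 4.17 (median 3.22) in Fed-Fed-Fed and from 5.40 to 8.23 (median 6.17) in Fed-Fed-Fast, with no overlap. In Fast-Fast-Fed it ran from 2.36 to 7.35 (median 6.05) and in Fast-Fast-Fast from 4.72 to 7.84 (median 5.78), which overlapped. It rose by 3.04 without earlier fasts, and the response of 0.76 with them was not called. The difference was -2.29 (interval -3.99 to -0.59, unadjusted p = 0.010, adjusted p = 0.999 by limma).

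Within Fast-Fast-Fed, 3 mice had Gadd45g between 2.36 and 3.25 and 5 mice between 5.87 and 7.35. The same 5 mice, replicates 2, 4, 5, 6 and 8, were also the 5 highest of their 8 for Foxq1, Csrnp1, Cish and Socs3, a pattern noticed in these values. These 5 genes were taken for their most negative differences, a choice that favours genes high in Fast-Fast-Fed. The cut into 3 low and 5 high mice was set for all of them and not found gene by gene. Their agreement is therefore a description only. Foxq1, a forkhead transcription factor, was between 7.02 and 7.99 in them and between 4.79 and 5.68 in the other mice of the group. Cish, an inhibitor of cytokine and growth hormone signalling, was between 3.65 and 4.61 against 1.95 to 2.85. Socs3, an inhibitor of the same family, was between 3.49 and 5.28 against 2.64 to 2.91, and Csrnp1, a nuclear protein of the immediate early kind, between 3.44 and 4.46 against 2.34 to 2.94.

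These 4 genes had differences between the responses of -1.21 (Foxq1), -1.20 (Csrnp1), -1.11 (Cish) and -1.09 (Socs3), each with an adjusted p of 0.999 by limma. With the mean of each gene's probe sets in place of the highest, Foxq1 was -0.56, Cish -0.74 and Socs3 -0.72. In fed mice they were higher with 2 earlier fasts by 1.37, 0.76, 1.14 and 0.83, none called, with adjusted p between 0.583 and 0.856. In fasted mice the history difference was 0.16 for Foxq1, -0.44 for Csrnp1, 0.03 for Cish and -0.25 for Socs3. The split of the fed mice therefore enters the difference through the Fast-Fast-Fed group, and its source was not tested. For Csrnp1 and Socs3 a part of the difference lay in the fasted mice, as it did for Gadd45g, at -0.59 by history there. Without Fed-Fed-Fast replicate 5 the differences were -2.04 for Gadd45g, -1.25 for Foxq1, -1.03 for Csrnp1, -1.06 for Cish and -0.91 for Socs3. Star, the steroidogenic sterol carrier, reached -1.02 through 1 mouse, Fed-Fed-Fast replicate 4 at 7.12, and was -0.40 without it.

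Promoters of 3 stress-inducible genes with negative differences are shown because Gadd45g and Socs3 were high in the same fed mice and Dusp1, a phosphatase that ends MAP kinase signalling, is an immediate early gene (difference -0.70). They cover 250 bases upstream of the RefSeq start in GRCm38.p6, given 5′ to 3′ on the gene's strand, and were chosen after the values were seen. Capitals mark a cAMP response element (TGACGTCA) or its core (TGACG) and a STAT element (TTCNNNGAA), searched on both strands. The palindromic glucocorticoid response element was also searched. The core also counts where it overlaps the full element.
Gadd45g: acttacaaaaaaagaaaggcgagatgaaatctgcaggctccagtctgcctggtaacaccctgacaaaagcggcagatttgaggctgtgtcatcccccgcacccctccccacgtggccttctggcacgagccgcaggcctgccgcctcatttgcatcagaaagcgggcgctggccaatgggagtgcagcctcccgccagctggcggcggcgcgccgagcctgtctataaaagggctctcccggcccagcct
Socs3: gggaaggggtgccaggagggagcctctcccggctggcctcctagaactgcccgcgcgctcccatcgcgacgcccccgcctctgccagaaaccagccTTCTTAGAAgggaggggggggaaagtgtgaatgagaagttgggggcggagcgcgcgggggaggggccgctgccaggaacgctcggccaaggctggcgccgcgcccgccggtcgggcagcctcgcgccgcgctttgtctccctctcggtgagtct
Dusp1: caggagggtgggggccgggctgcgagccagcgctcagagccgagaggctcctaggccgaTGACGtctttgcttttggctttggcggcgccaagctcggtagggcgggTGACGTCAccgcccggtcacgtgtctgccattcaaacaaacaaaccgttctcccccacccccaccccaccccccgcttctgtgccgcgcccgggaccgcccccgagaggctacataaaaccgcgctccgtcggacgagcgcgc
These lie at chr13:51846425-51846674 on the plus strand, chr11:117969367-117969616 on the minus strand and chr17:26508473-26508722 on the minus strand. Dusp1 holds 1 full cAMP response element and 3 matches of its core, Socs3 holds 1 STAT element, and Gadd45g holds none of these letters in this window. Cish (1 start) and Csrnp1 (4 starts), high in the same mice, hold neither the full element nor the STAT element in these windows, and each window holds the core. Foxq1, also high in those mice, was not searched. Junb, another immediate early gene with a negative difference, holds 1 match of the core and neither the full nor the STAT element. Ccnjl, with a positive difference, holds none of these letters. The glucocorticoid element is in none of the windows of Gadd45g, Socs3, Dusp1, Cish, Csrnp1, Junb and Ccnjl. Of 32536 promoters of this length, 1.56% hold the full element, 17.9% the core, 7.04% the STAT element and 0.031% the glucocorticoid element. A match is a description of letters and not a measured binding site.

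The most positive differences were as uncertain. Cyp7a1, the rate-limiting enzyme of bile acid synthesis, ran from 7.71 to 9.83 (median 9.17) in Fed-Fed-Fed and from 7.91 to 9.61 (median 8.86) in Fed-Fed-Fast. With earlier fasts it ran from 6.95 to 8.97 (median 7.81) fed and from 8.01 to 10.05 (median 9.44) fasted. The fed and the fasted values overlapped in either history. Its response was -0.06 without earlier fasts and a rise of 1.30 with them (adjusted p = 0.00521, limma). The difference of 1.37 had an interval of 0.44 to 2.29 and an adjusted p of 0.999 (limma), and in fed mice it was lower by history, at -1.04. The other 18 genes of the bile acid list included Nr1h4, the bile acid receptor FXR, with a difference of 0.30, and the list median was -0.02.

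Moxd1, a monooxygenase, and Socs2, an inhibitor of growth hormone signalling, had differences of 1.68 (interval -1.04 to 4.41) and 1.501 (interval -0.32 to 3.32). Both varied within every group: Socs2 ran from 1.82 to 7.18 in Fed-Fed-Fast alone, and its difference was 0.78 with the mean of its probe sets. Erdr1 differed by 1.04 (interval 0.37 to 1.71), Serpina4-ps1, a serpin pseudogene whose probes may read relatives, by 0.97 (interval 0.06 to 1.89) and C4a, a complement C4 gene with near-identical copies, by 0.81 (interval 0.08 to 1.54). None was called.

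The lists were read by their median difference, and 0 members were called in any of 40 lists. For 30 of 40 lists the median lay within 0.1 of 0. The glucocorticoid-responsive list had the most negative pathway median, -0.29 over 21 genes, 15 of them negative, with 5 at an unadjusted p under 0.05, all negative. Without earlier fasts 20 of its 21 genes were called as rising, and with earlier fasts 13, beside 1387 and 1344 of all 22180 genes. Median responses were 1.11 and 0.65. A lower count of calls does not show that the other genes failed to rise, and 0 of 21 were called for the difference. Without Fed-Fed-Fast replicate 5 the median difference was -0.16, and without Fast-Fast-Fast replicate 1 it was -0.15. Without Fast-Fast-Fed replicate 7 it was -0.39, and it stayed negative in every setting. Per1, a clock gene that glucocorticoids raise, rose by 2.01 and by 1.68, a difference of -0.33 (interval -1.30 to 0.64). The list's array means were 6.56 to 7.46 in Fed-Fed-Fast and 6.36 to 7.23 in Fast-Fast-Fast, which overlapped.

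Immediate early genes, the first transcripts after a stimulus, had a median difference of -0.21 over 20 genes, of which 14 were negative. Of these 20 genes, 4 were called without and 0 with earlier fasts, beside 12.5% and 11.6% of all genes. Dusp1 responded by 0.58 and -0.12, and Junb, a subunit of AP-1, by 0.58 and -0.14; the differences of -0.70 and -0.71 were not called. Fed-Fed-Fast replicate 5 had the highest list mean of its group at 4.77, with the others between 3.64 and 4.07. Without that mouse the list's median difference was -0.14, and with dim genes left out it was -0.30. Clock and output genes had a median of -0.21, with 15 of 18 negative and Ciart, a repressor of the clock, lowest at -0.87 (unadjusted p = 0.102, limma). That median was -0.13 without Fast-Fast-Fed replicate 8 and -0.28 without the 4 arrays of lowest limma weight.

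**Figure D4:**
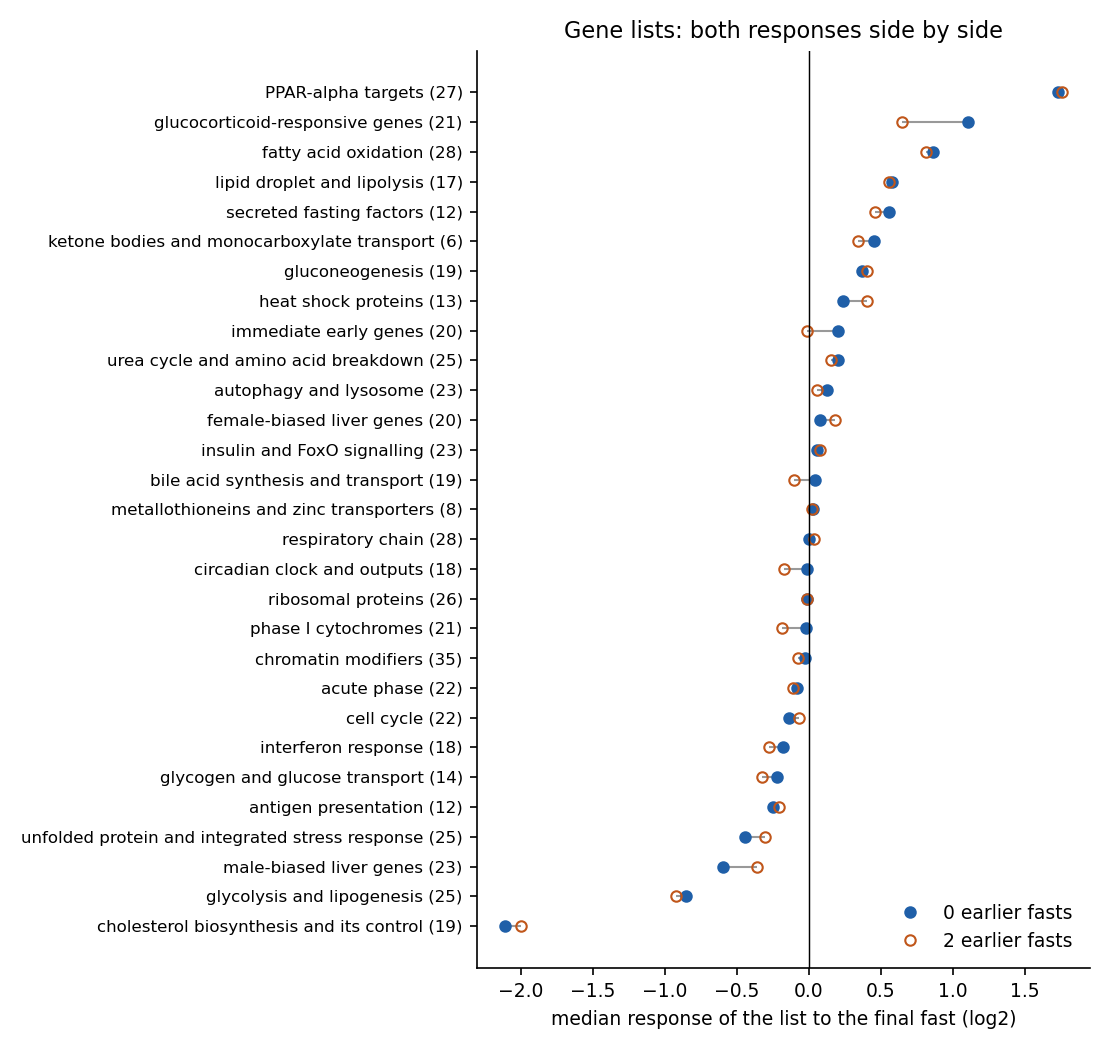
Median response to the final fast (log2) of 29 gene lists in mice with 0 (filled) and 2 (open) earlier fasts, with the number of measured genes in brackets. The symbols nearly coincide for PPAR-alpha targets (1.73 and 1.76), and the glucocorticoid-responsive list shows the widest gap (1.11 and 0.65).

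Pathway lists with larger positive medians included male-biased liver genes (0.15, 18 of 23 positive), the unfolded protein and integrated stress response (0.11, 20 of 25 positive), cell cycle genes (0.10, 14 of 22 positive), heat shock proteins (0.09, 9 of 13 positive) and ketone body and monocarboxylate genes (0.08, 3 of 6 positive). Single mice moved these medians: male-biased genes were at 0.25 without Fed-Fed-Fast replicate 2, the stress response at 0.059 without Fast-Fast-Fast replicate 2 and 0.17 without Fast-Fast-Fed replicate 2, and heat shock proteins at 0.046 without Fed-Fed-Fed replicate 3. Without the 4 arrays of lowest limma weight, male-biased genes were at 0.064. Sdf2l1, an endoplasmic reticulum chaperone cofactor, had the largest difference of the stress list at 0.65. Trib3, an Atf4 target, went the other way at -0.45. Ccna2, the S-phase cyclin, differed by 0.52 (unadjusted p = 0.0011, adjusted p = 0.928 by limma) at a mean of 2.21, near the array medians. Female-biased genes had a median of -0.12.

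Several lists of structural and regulatory genes had narrow intervals. All 28 respiratory chain genes had intervals within 1.5-fold, as did 33 of 35 chromatin modifiers and 24 of 26 ribosomal protein genes. Among chromatin modifiers, Kdm6b, an H3K27 demethylase, differed by -0.42 and its relative Kdm6a by 0.30, neither called. Of 25 urea cycle and amino acid genes, 12 rose and 4 fell without and 8 rose and 4 fell with earlier fasts; Ass1, argininosuccinate synthetase, had the lowest difference at -0.99 (interval -1.90 to -0.09).

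Markers of other liver cells were measured alongside. In bulk RNA, fewer cells of a type and less RNA per cell cannot be told apart. Of the Kupffer cell markers, 8 of 13 were called as falling without and 4 of 13 with earlier fasts, beside 1381 and 1225 of all 22180 genes. None was called for the difference. Their median difference was 0.15, and it was 0.28 without Fast-Fast-Fast replicate 2. It was -0.13 when the 4 arrays with the lowest limma weights were left out, the 1 of 40 settings in which its sign changed. Sinusoidal endothelial and stellate lists had medians of -0.03 and 0.01. Adipocyte markers had a median of -0.31 over 7 genes, and their array means were 2.77 to 4.02 in Fed-Fed-Fast and 2.67 to 2.85 in Fast-Fast-Fast. Fed-Fed-Fast replicate 4 stood at 4.02, apart from the others at up to 2.97, and without it the median was -0.16. Plin1, an adipocyte lipid droplet coat, differed by -0.62, and by -0.47 without that mouse.

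**Figure D5:**
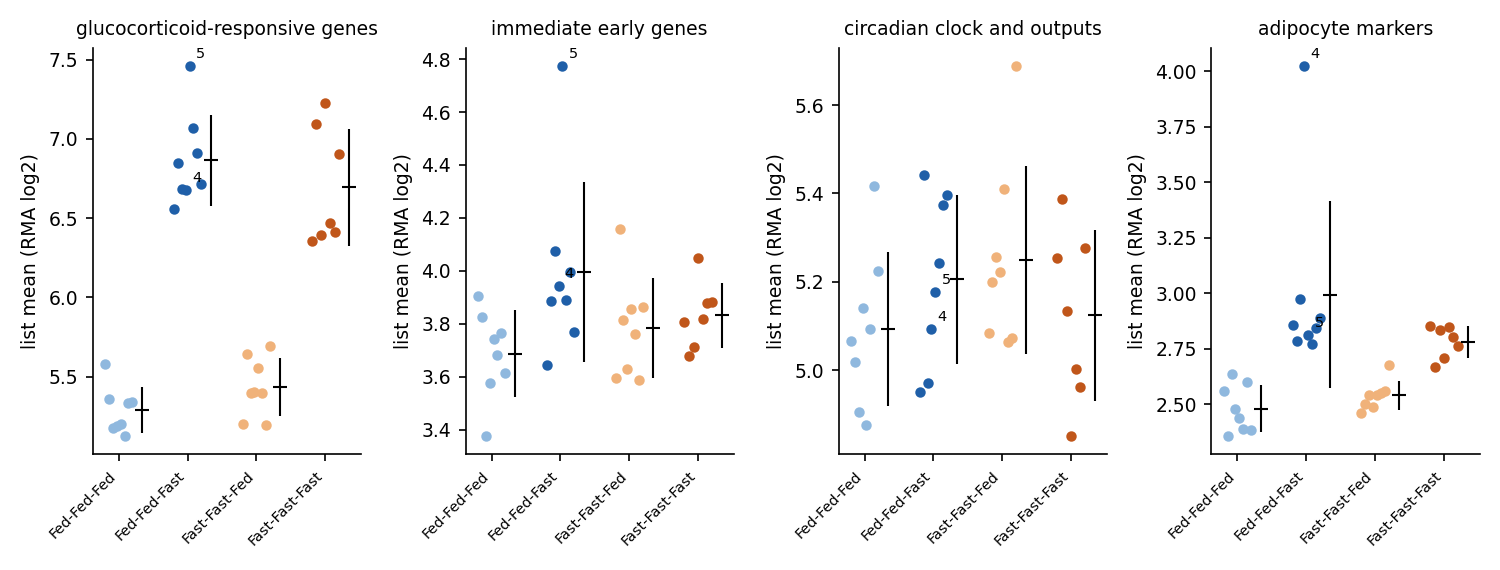
Mean RMA log2 value of 4 lists in single mice by group, with group mean and SD; the numbers 4 and 5 mark those replicates of Fed-Fed-Fast. Replicate 5 is highest of its group for glucocorticoid-responsive and immediate early genes (4.77), and replicate 4 for adipocyte markers (4.02).

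Most genes called in 1 history only moved in the same direction in the other. Of the 2768 and 2569 called genes, 1831 were shared, which is 66.1% and 71.3%, and 1829 of the shared genes had the same direction. Over all genes the direction was shared by 14601 of 22180. Of the 937 genes called without earlier fasts only, 93.1% moved in the same direction with earlier fasts, and 0 were called for the difference. Of the 738 genes called with earlier fasts only, 91.7% moved in the same direction without them, and 0 were called. Fed and fasted mice did not overlap for 949 genes without and 970 with earlier fasts, and 608 genes were apart in the same direction in both. Probe sets with several or no gene symbols, 1814 and 16010 in number, also gave 0 calls for the difference, with 66 and 726 at an unadjusted p under 0.05 by limma.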

How the data were processed

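Liver RNA (100 ng per sample) of 31 mice was hybridized to Affymetrix whole-transcript arrays, per the labels' protocols. The deposited values are log2 signals made by the authors with RMA, per the submitters' processing notes, which give no version. The platform annotation gave 1 symbol to 23521 of 41345 probe sets, several to 1814 and none to 16010; the probe set with the highest mean stood for each of 22180 genes.

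One limma fit (version 3.58.1, R 4.3.3, data.table package 1.17.8) covered the 4 groups as group means with moderated variances, 2-sided, with 95% intervals. Plots used Python 3.11.15 with matplotlib 3.10.9. The analysis was tested on simulated data. Genes were named by rule: the 16 smallest p, the 6 largest differences each way, the 8 largest responses each way, 2 per list and a panel of 20 genes; 1700025C18Rik, Rnd3, Zc2hc1c, Slc27a1, Sdf2l1 and Ciart are outside it and were chosen after their values were seen. The comparison, the members and the 29 pathway and 11 marker lists (688 of 771 entries measured) were chosen with earlier results of these data known. Alternatives covered variance priors, array weights, normalization, a filter on dim genes, probe set choice, a replicate block and leaving out each array.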

Additional observations from a re-analysis of the deposited data

Results flagged for a closer look

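In 320 groups of values (40 genes and 40 list means), 23 (7.19%) had 1 mouse far from the others of its group; chance gives about 1 in 20. Fed-Fed-Fast replicate 5 accounted for 5 of them: Cidec at 9.58 (others 7.51 to 8.35), and the list means of immediate early genes at 4.77, secreted fasting factors at 7.35, bile acid genes at 8.62 and glycogen and glucose transport genes at 6.81. In Fed-Fed-Fast, replicate 4 had an adipocyte marker mean of 4.02 (others 2.77 to 2.97), replicate 1 a respiratory chain mean of 7.45 and replicate 6 an Rtp2 value of 1.98.

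In Fast-Fast-Fast, replicate 4 had G6pc at 11.11, a lipogenesis mean of 7.05 and a glycogen list mean of 6.73. Replicate 5 had Pck1 at 11.49 and replicate 2 a sinusoidal endothelial mean of 6.39. In Fast-Fast-Fed, replicate 1 had Fam118b at 3.35 and a cholangiocyte mean of 2.58, and replicate 4 had Cdkn1a at 3.38. Replicate 5 had a Kupffer cell mean of 4.83, and replicate 8 an adipocyte mean of 2.68 and a ribosomal protein mean of 6.47. In Fed-Fed-Fed, replicate 3 had Eepd1 at 4.56, replicate 4 Fam118b at 4.44, replicate 6 Zxda at 4.98 and replicate 7 an acute phase mean of 8.40.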

How the results depend on the processing

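The difference between the responses gave 0 calls in 40 of 42 settings. Leaving out 1 array gave 0 to 1 calls for it and for the history difference in fed and in fasted mice. Counts for the responses ran from 2439 to 2807 without and from 2277 to 2613 with earlier fasts, the mean response from 4022 to 4249. Intervals within 2-fold covered 98.3 to 98.5% of all genes and 76.9 to 83.6% of fast-responsive genes. Replicate numbers were not taken as pairs in the main fit. Of 45 same-number correlations, 6 were over 0.1 (mean 0.043), beside 15 of 315 for other numbers (mean -0.0061). Both the share and the mean were higher for same numbers, and the source of this was not tested. The fit with a replicate block gave 0 calls for the difference (1054 at an unadjusted p under 0.05) and 2812 and 2584 for the responses. Without the 4 arrays of lowest weight, an alternative chosen after seeing the data, there were 0 calls, with 2254 and 2593 for the responses. Of 124 named genes, 7 changed sign somewhere, all with a size of at most 0.30. Acot2 was -0.0583 with the replicate block, Cyp17a1 0.0913 without those 4 arrays, and Fdps 0.0184 with array weights and 0.0433 without those 4 arrays. With 1 array left out, the difference ran from -0.131 to 0.163 for Acot2, from -0.217 to 0.0152 for Epcam, from -0.115 to 0.0184 for Fdps, from -0.304 to 0.173 for Igfbp1, from -0.470 to 0.0357 for Mt2 and from -0.0229 to 0.282 for Thrsp. The cause was not tested.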
